A study of Mus musculus with 6 samples.

Results

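The genes described here are 10 molecular chaperones of the heart: the small heat shock proteins Hspb1, Hspb6, Hspb7, Hspb8 and Cryab, the cochaperone Bag3, the constitutive Hsp70 gene Hspa8, the stress-inducible Hsp70 genes Hspa1a and Hspa1b, and the J-domain gene Dnajb1. They were taken by name from a table of 17447 gene symbols, and all 10 were in it. RNA of whole heart tissue was sequenced from wild-type mice, in 3 libraries from animals with chronic kidney disease (CKD) and 3 from sham-operated animals. CKD was produced by subtotal nephrectomy in 2 operations, the first taking the poles of the left kidney and the second the whole right kidney. Sham animals had laparotomy and exposure of the kidneys with no tissue removed, and both groups received ketamine and xylazine anaesthesia. No source used here gives the strain, sex, age or time of tissue collection, and nothing beyond the replicate numbers says that the libraries are separate animals.

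Small heat shock proteins are chaperones that need no ATP and hold unfolding proteins in a state from which they can be refolded. In striated muscle they bind the Z-disc, desmin and titin, and mutations in several of them or in BAG3 cause myopathy and cardiomyopathy in humans. BAG3 bridges the small heat shock protein HSPB8 to Hsp70, and with the ubiquitin ligase CHIP (gene Stub1) this complex sends damaged filamin and other Z-disc proteins to autophagy, a route called chaperone-assisted selective autophagy. Hspa8 encodes the Hsp70 that cells make at all times. Hspa1a and Hspa1b encode the Hsp70 that the transcription factor HSF1 switches on under heat or other proteotoxic stress, and the J-domain protein of Dnajb1 stimulates the ATPase of Hsp70.

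The row labels of the CKD columns were checked first. Across all 17447 rows, the Spearman correlation between a CKD and a sham column was -0.0586 to -0.0528 in 9 pairs, against 0.984 to 0.987 within the 3 CKD pairs and 0.982 to 0.985 within the 3 sham pairs. Such a correlation runs over genes and not over independent samples. The row labelled Cryab held 8, 5 and 12 counts in the CKD columns, against 25044, 24712 and 28390 in the sham columns. The row labelled Hspb8 held 5 counts in each CKD column, against 6885, 6146 and 8272 in the sham columns. By rank, the median chaperone row stood at percentile 41.9 in the CKD columns, against 98.3 in the sham columns. The gene labels of the CKD columns therefore do not go with their values, no difference between CKD and sham was computed for any chaperone, and every level below is from the 3 sham hearts, written sham 1, sham 2 and sham 3.

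Levels are in CPM, which is the count divided by the total of its column and multiplied by 1000000, and the totals were 10480788, 10474487 and 12669724 counts in sham 1, 2 and 3. Of 7 ventricular cardiomyocyte markers, all averaged at least 10 CPM in sham hearts, and the skeletal muscle myosin rows Myh4 and Myh1 had 0 counts in each heart, where a true level of 3 counts or 0.286 CPM could be missed in sham 2 by counting error alone. Other genes of the skeletal muscle list were not at 0. Ckm had 2786, 3061 and 2823 CPM in sham 1, 2 and 3, and Actn3 had 6, 3 and 5 counts. In whole tissue, fewer cells of a type and less RNA per cell cannot be told apart. The hearts were not equal in other ways that stand beside the results below. Markers of atrial muscle (5 genes) summed to 0.242%, 0.00685% and 0.0449% of the counts in sham 1, 2 and 3. For 25 immediate early genes, which answer many stimuli with rapid transcription, the sums were 0.150%, 0.0643% and 0.0653%. Sham 1 was thus highest for both lists. Fibroblast markers (5 genes) summed to 0.161%, 0.0807% and 0.182%, endothelial markers (5 genes) to 0.119%, 0.0996% and 0.128%, smooth muscle and pericyte markers (5 genes) to 0.106%, 0.100% and 0.127%, macrophage markers (5 genes) to 0.0410%, 0.0309% and 0.0497% and erythroid markers (4 genes) to 0.0100%, 0.00765% and 0.0445%. Sham 2 was the lowest heart for each of these 5 lists. The part of these lists in the chaperone levels was not tested.

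The inducible pair is nearly one sequence in 2 places, which bears on every value given for it. In GENCODE M21 (build GRCm38, not the mm9 build the submitters name, so coordinates are given with their sequences only), the coding sequences of Hspa1a (641 residues) and Hspa1b (642 residues) aligned over 1929 positions with 8 substitutions and a gap of 3 bases in Hspa1a, an identity of 99.4%. The longest run without a difference was 638 bases. The following 60 bases (coding positions 1368 to 1427 of each gene, minus strand) are shown because no stretch of that length without a gap holds more differences, and capitals mark the 2 positions that differ. They lie at chr17:34970499-34970558 for Hspa1a and chr17:34957581-34957640 for Hspa1b.
Hspa1a: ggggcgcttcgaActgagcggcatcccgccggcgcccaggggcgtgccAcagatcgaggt
Hspa1b: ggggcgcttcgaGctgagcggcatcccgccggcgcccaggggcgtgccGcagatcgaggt

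The promoters of the pair were nearly as close. Within 250 bases upstream of the start, the RefSeq promoters of Hspa1a and Hspa1b (build GRCm38.p6) differed at 3 positions, an identity of 98.8%. HSF1 binds heat shock elements, which are repeats of GAA in alternating direction. The promoters were therefore searched on both strands for a triple unit (GAA, TTC and GAA, each 2 bases after the one before). As a search added after that one gave nothing, they were searched for GAANNTTC, which it contains, called the double unit here. The triple unit also contains the other order, TTCNNGAA, which was not searched, so a gene without the double unit may still hold that one. The double unit reads the same on both strands. Promoter sequence was found for 8 of the 10 genes, at 10 starts, and the 2 without an entry were Cryab and Hspa8. The triple unit was in 0 of the 8 genes, and in 0.466% of all 32851 promoter windows of that length. The double unit was in 4 of the 8, Hspb1, Hspb6, Hspa1a and Hspa1b, and in 6.69% of all windows. The share of all windows is per start, while a gene counts if either start matches. Hspb6 matched at its second start only. The matches of Hspa1a and Hspa1b lie in nearly identical sequence and are not separate. TATAAA was at 1 start, the second of Hspb6, at position -29, and in 12.4% of all windows. The stretches from position -130 to position -71, counted from the start, are shown for the 3 of these genes with a single listed start, with the double unit in capitals. Hspb1 lies at chr5:135887789-135887848 (plus strand), Hspa1a at chr17:34972227-34972286 and Hspa1b at chr17:34959309-34959368 (both minus strand). A match of letters is a description and not a binding site, and the absence of these letters from a window says nothing about the factor.
Hspb1: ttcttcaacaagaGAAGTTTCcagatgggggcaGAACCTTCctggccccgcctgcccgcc
Hspa1a: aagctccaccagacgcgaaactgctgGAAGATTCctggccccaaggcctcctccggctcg
Hspa1b: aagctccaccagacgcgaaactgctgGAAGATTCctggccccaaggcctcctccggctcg

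Hspb1 carried the double unit at 2 places, positions -117 and -97, and the inducible copies carried it once each, at position -104, in stretches with identical letters.

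Among the small heat shock proteins, Hspb7, a muscle-restricted member that binds filamin C, had 4067, 3782 and 3423 CPM in sham 1, 2 and 3, a mean of 3757 ± 323 CPM (SD, n = 3). Cryab, which encodes alphaB-crystallin, a chaperone of desmin and titin, had 2389.5, 2359 and 2241 CPM, a mean of 2329.8 ± 78.6 CPM (SD, n = 3). Hspb6, also called HSP20, a target of cyclic nucleotide kinases in muscle, had 1412, 1398 and 1214 CPM, a mean of 1341 ± 110.2 CPM (SD, n = 3). All 3 genes were lowest in sham 3, and the highest heart exceeded the lowest by 1.07-fold for Cryab, 1.19-fold for Hspb7 and 1.16-fold for Hspb6.

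Hspb8, the partner of BAG3, had 657, 587 and 653 CPM, a mean of 632 ± 39.4 CPM (SD, n = 3), with sham 2 the lowest. Hspb1, which encodes HSP25, the mouse counterpart of human HSP27 that binds actin filaments, had 218, 157 and 203 CPM, a mean of 193 ± 31.4 CPM (SD, n = 3), also with sham 2 the lowest. Together the 5 small heat shock genes took 0.874%, 0.828% and 0.773% of all counts, a mean of 0.825% ± 0.0505 (SD, n = 3). Within those counts, Hspb7 made up 45.5% ± 1.14 and Cryab 28.3% ± 0.843 (SD, n = 3 each). Of the summed levels per kilobase of transcript, a different total, Cryab made up 41.8% ± 0.939 and Hspb7 27.2% ± 0.903. Hspb6 made up 19.7% ± 0.812 of it, Hspb8 6.99% ± 0.586 and Hspb1 4.28% ± 0.694 (SD, n = 3 each).

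**Figure D1:**
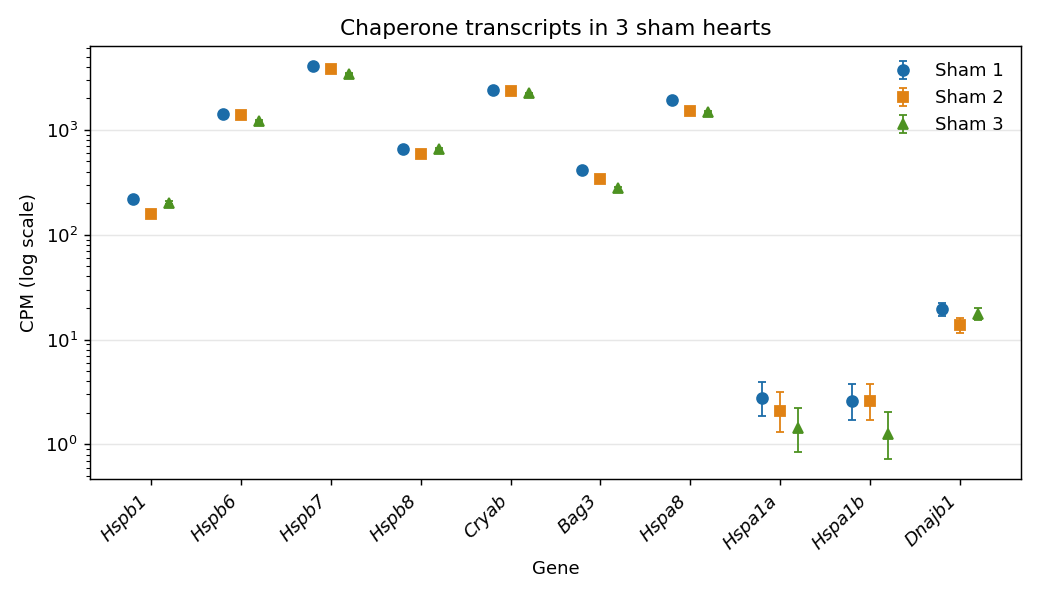
Level of each chaperone gene in CPM (log axis) in sham 1, sham 2 and sham 3. Points are single hearts and bars are 95% Poisson intervals of their counts, which cover counting error alone. The values are not corrected for length. The 3 hearts of Bag3 lie apart at 417, 343 and 279 CPM, while Hspa1a and Hspa1b lie between 1.26 and 2.77 CPM with intervals that overlap between the hearts.

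Bag3 had 417, 343 and 279 CPM in sham 1, 2 and 3, a mean of 346 ± 69.3 CPM (SD, n = 3). The 3 hearts lay apart beyond counting error, with 95% Poisson intervals of 405 to 430 CPM in sham 1, 332 to 354 in sham 2 and 269 to 288 in sham 3. Its coefficient of variation (CV, the SD as a percent of the mean) was 20.0%, the highest among the 8 chaperones that averaged at least 10 CPM, where counting alone gives 1.62%. Per kilobase of transcript, Hspb8 exceeded Bag3 by 2.22-fold, 2.42-fold and 3.31-fold in sham 1, 2 and 3, so the ratio of these partner transcripts was highest in the heart with the least Bag3.

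Hspa8 had 1909, 1499 and 1481 CPM, a mean of 1629.5 ± 242 CPM (SD, n = 3). Sham 1 stood 1.28-fold above the mean of the other hearts, while the 95% Poisson intervals of sham 2 (1476 to 1523 CPM) and sham 3 (1459.7 to 1502 CPM) overlapped. Per kilobase of transcript, Hspa8 exceeded its cochaperone Bag3 by 4.90-fold, 4.68-fold and 5.69-fold in sham 1, 2 and 3.

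Hspa1a gave 29, 22 and 18 counts and Hspa1b gave 27, 27 and 16, which is 2.77, 2.10 and 1.42 CPM for Hspa1a and 2.58, 2.58 and 1.26 CPM for Hspa1b. The means were 2.10 ± 0.673 CPM and 2.14 ± 0.759 CPM (SD, n = 3 each), and the Poisson intervals of the copies overlapped in every heart. The counts are too few to rank the copies. Summed, the inducible pair had 5.34 CPM in sham 1 (95% Poisson interval 4.04 to 6.94), 4.68 in sham 2 (3.46 to 6.18) and 2.68 in sham 3 (1.86 to 3.75). The interval of sham 3 did not reach that of sham 1 and overlapped that of sham 2. The CV of the sum was 32.7%, where counting alone gives 14.7%.

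Dnajb1 had 19.5, 13.7 and 17.7 CPM, a mean of 16.9 ± 2.98 CPM (SD, n = 3), from 204, 143 and 224 counts. Like Hspb1, it was highest in sham 1 and lowest in sham 2. Its CV was 17.6%, where counting alone gives 7.25%. Per kilobase of transcript, Hspa8 exceeded Dnajb1, its J-domain partner, by 123-fold, 137-fold and 105-fold in sham 1, 2 and 3.

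Constitutive and inducible genes were then compared within each heart. Of all Hspa8, Hspa1a and Hspa1b counts, the inducible pair made up 0.279% in sham 1 (exact 95% binomial interval 0.211% to 0.362%), 0.311% in sham 2 (0.230% to 0.411%) and 0.181% in sham 3 (0.125% to 0.253%). The mean was 0.257% ± 0.0679 of the counts (SD, n = 3), and 0.214% when the levels were taken per kilobase of transcript. Per kilobase of transcript, Hspa8 stood 431-fold, 385-fold and 666-fold above the summed pair in sham 1, 2 and 3. Sham 3, with the lowest inducible sum, gave the largest ratio, and the intervals of the 3 shares all overlapped one another.

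Since reads from shared sequence may be dropped or split by a counter whose settings no source used here gives, the sequence that each gene shares with others was measured. Every run of 100 bases in the longest-coding GENCODE transcript of a gene was looked for in 141767 annotated transcripts, on both strands. For Hspa1a, 56.5% of such windows were also in another gene, mostly Hspa1b (47.1%), and for Hspa1b 49.9% were, all of them in Hspa1a. Hspa8 shared more, 63.4%, with 9 genes, of which 0 have a row in the table, and Hspb1 shared 56.3% with 2 genes, of which 0 have a row. Cryab shared 15.0% with Hspb2, its neighbour on the opposite strand. Hspb6, Hspb7, Hspb8, Bag3 and Dnajb1 shared 0%. With windows of 150 bases the share was 46.0% for Hspa1a, 40.5% for Hspa1b and 56.0% for Hspa8.

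**Figure D2:**
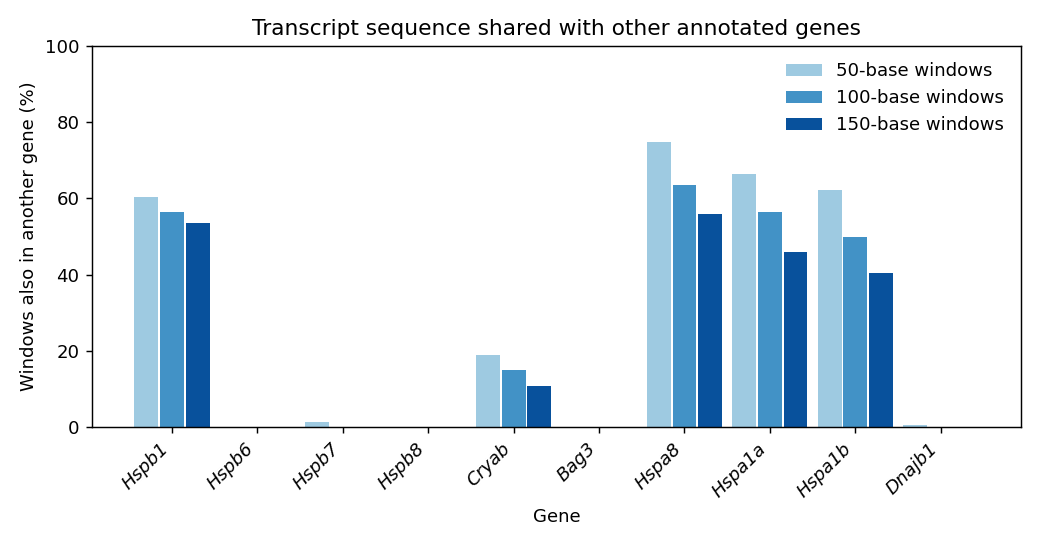
Percent of windows of 50, 100 and 150 bases in each gene's transcript that also occur in a transcript of another annotated gene. At 100 bases the bars reach 63.4% for Hspa8, 56.5% for Hspa1a and 49.9% for Hspa1b, and are at 0% for Hspb6, Hspb7, Hspb8, Bag3 and Dnajb1.

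Dividing by the windows found in no other gene, in place of the whole transcript, gives the level that would follow if every shared read had been dropped. On this scale, CPM per kilobase of unshared windows, Hspa8 averaged 1942 ± 289 and the inducible pair summed to 3.26 ± 1.06 (SD, n = 3 each). Hspa8 was then 552-fold, 498-fold and 852-fold above the pair in sham 1, 2 and 3, further apart than on the transcript scale. The percent of shared windows was higher for Hspa8 than for either copy.

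Per kilobase of transcript the order of the 10 genes was Cryab (2086 ± 70.4), Hspb7 (1357 ± 117), Hspb6 (984 ± 80.9), Hspa8 (681 ± 101), Hspb8 (348 ± 21.7), Hspb1 (213 ± 34.8), Bag3 (135 ± 27.0), Dnajb1 (5.65 ± 0.994), Hspa1b (0.763 ± 0.271) and Hspa1a (0.706 ± 0.227), in CPM per kilobase (SD, n = 3 each). Of the 9 pairs of neighbours in this order, 8 did not overlap between hearts, and the pair that did was Hspa1b with Hspa1a. The number stayed at 8 per kilobase of coding sequence, but the order changed at 2 places: Hspb7 (7367 ± 633) stood above Cryab (4413 ± 149), and Hspb8 (1069.7 ± 66.7) above Hspa8 (839.5 ± 125). Per unshared window, Hspa8 moved to second place below Cryab, and Hspb1 (548 ± 89.5) stood above Hspb8 (368 ± 22.9). Bag3, Dnajb1 and the inducible pair kept the lowest places on all 3 scales.

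**Figure D3:**
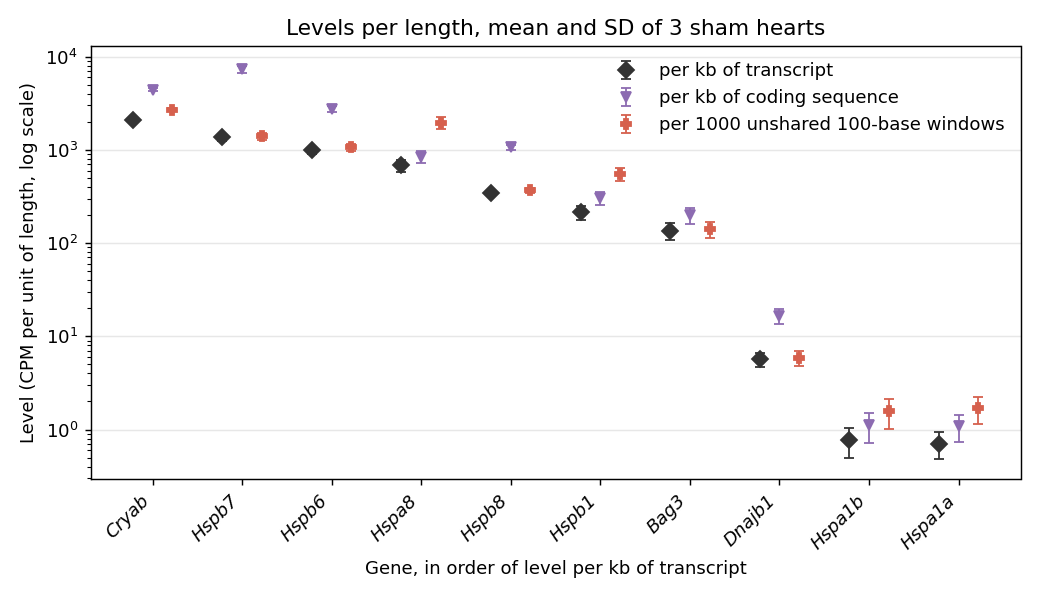
Mean level of each gene over 3 sham hearts, with SD as error bars, divided by kilobases of transcript, by kilobases of coding sequence or by kilobases of unshared windows of 100 bases (log axis). Genes run in the order of the transcript scale, from Cryab at 2086 to Hspa1a at 0.706 CPM per kilobase.

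The place of these genes in their families was read on the same transcript scale. Among 7 small heat shock genes with a row, all 5 described here stood above Hspb2 (106 ± 4.33 CPM per kilobase) and Hspb3 (12.1 ± 1.31), muscle genes whose proteins form a complex with each other. Among 14 Hsp70 and Hsp110 genes, Hspa8 was first and Hspa1b and Hspa1a were last. The pair stood below the testis-rich Hspa1l (5.19 ± 0.847), its neighbour, and Hspa2 (2.98 ± 0.711). On this scale the 3 hearts of each of the pair did not overlap those of Hspa2. Hspa2 was not measured per kilobase of unshared windows, where Hspa1a averaged 1.68 and Hspa1b 1.58. That scale divides by fewer bases than the transcript has, so Hspa2 could only rise on it. Hspa2 already had 3.63, 3.10 and 2.22 CPM per kilobase of transcript in sham 1, 2 and 3. Per kilobase of unshared windows, Hspa1a had 2.22, 1.68 and 1.14, and Hspa1b had 1.90, 1.90 and 0.933. Each copy was thus below Hspa2 within each heart also for the case that shared reads were dropped. After Hspa8 came the mitochondrial Hspa9 (361 ± 22.2) and the endoplasmic reticulum chaperone Hspa5 (167 ± 22.9). Among 6 BAG genes, Bag3 (135 ± 27.0) overlapped Bag1 (149 ± 7.79), a regulator of Hsp70 and cell survival, and stood above Bag6 (60.5 ± 6.22) with no overlap. Among 11 J-domain genes, Dnajb1 was the tenth, with Dnaja2 (110.1 ± 12.8) highest.

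**Figure D4:**
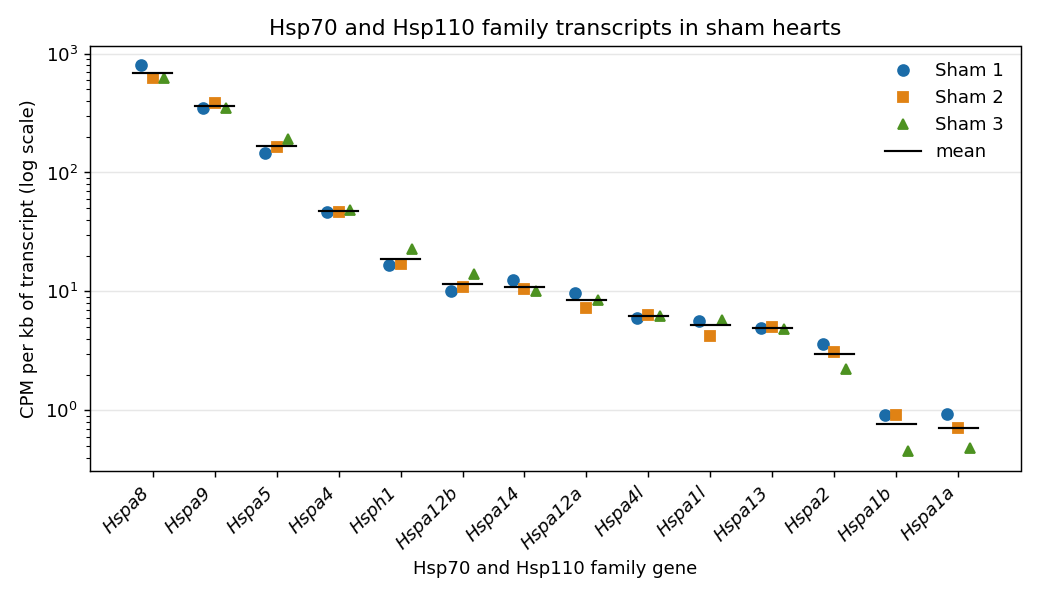
Levels of 14 Hsp70 and Hsp110 family genes in CPM per kilobase of transcript (log axis) in 3 sham hearts, with the mean as a line. Hspa8 lies at 619 to 797, while all values of Hspa1a and Hspa1b lie between 0.451 and 0.933, below those of the other 12 genes.

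The highest heart was the same for most of these genes, in part within counting error. Of the 8 chaperones averaging at least 10 CPM, 8 were highest in sham 1, where 36.9% of the 8864 genes at that level were. For 5 of the 8, Hspb1, Hspb6, Hspb8, Cryab and Dnajb1, the 95% Poisson interval of sham 1 overlapped that of the next heart, and for Hspb7, Bag3 and Hspa8 it did not. That number was 6 of 8 with either edgeR TMM (29.0% of all genes) or DESeq2 size factors (28.9% of all genes), since Cryab and Hspb6 were then highest in sham 2 (41.3% of all genes with TMM, 42.8% with DESeq2 size factors) and 0 of 8 were highest in sham 3 (29.8% and 28.3%). The lowest heart was sham 3 for 5 of the 8 (26.2% of all genes) and sham 2 for 3 of the 8, Hspb1, Hspb8 and Dnajb1 (45.6% of all genes). With the inducible pair included, at 1 CPM or more, 9 of 10 were highest in sham 1, where 37.0% of 12491 genes were, and 1, Hspa1b, was highest in sham 2 (21.0% of all genes) from equal counts of 27 in sham 1 and sham 2. At that floor 7 of 10 were lowest in sham 3 (23.7% of all genes) and 3 of 10 in sham 2 (48.8%).

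The excess in sham 1 was not of one size. Sham 1 exceeded the mean of the other hearts by 1.34-fold for Bag3, 1.28-fold for Hspa8, 1.24-fold for Dnajb1 and 1.21-fold for Hspb1, and these were 1.30-fold, 1.24-fold, 1.21-fold and 1.18-fold with TMM. It did so by 1.13-fold for Hspb7, 1.08-fold for Hspb6, 1.06-fold for Hspb8 and 1.04-fold for Cryab, and by 1.09-fold, 1.05-fold, 1.03-fold and 1.01-fold with TMM. Sham 1 also had the highest shares of atrial markers and immediate early genes given above, and the part of either in this excess was not tested. Ventricular markers summed to 9.73%, 10.6% and 9.50% of the counts in sham 1, 2 and 3, and 6 of the 7 genes were highest in sham 2, where 23.5% of all genes were (41.3% with TMM and 42.8% with DESeq2 size factors, with 6 of 7 under both).

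**Figure D5:**
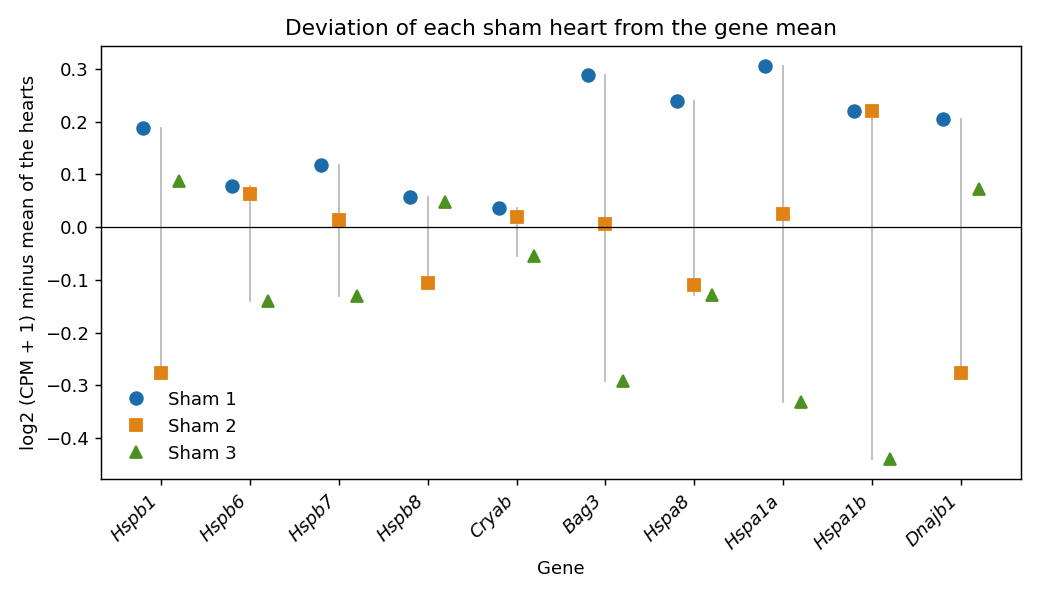
Deviation of each sham heart from the gene's mean on the log2 (CPM + 1) scale, which understates the deviations of Hspa1a and Hspa1b near 2 CPM. Sham 1 lies above 0 for all 10 genes, from 0.04 for Cryab to 0.31 for Hspa1a, and sham 3 reaches -0.44 for Hspa1b.

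Set beside genes of like level, between 20% below and 25% above the mean CPM, Bag3, Hspa8 and Hspb1 were among the more variable genes. The spread of Cryab rested on the scaling. Its CV was 3.37%, and 5.56% of 18 genes of like level had a lower one, but it was 6.22% with TMM and 6.60% with DESeq2 size factors. For Hspb8 the scaling worked the other way, with a CV of 6.23%, against 2.41% with TMM and 2.19% with DESeq2 size factors. The CV of Hspa8 was 14.9%, and 92.9% of 42 such genes had a lower one. For Bag3, with a CV of 20.0%, 93.4% of 211 genes had a lower one, and for Hspb1, with a CV of 16.3%, 88.0% of 426 did. The CV of Bag3 was 20.1% with TMM, that of Hspa8 13.6% and that of Hspb1 12.9%. The inducible copies were in the middle of their kind, with CVs of 32.1% for Hspa1a and 35.5% for Hspa1b, where 48.2% of 541 and 55.0% of 549 genes had lower ones. A CV of 30% or more was reached by 0 of the 8 chaperones at 10 CPM, where 5.86% of all genes reached it, and by 2 of the 10 at 1 CPM, where 15.1% did.

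Related chaperone lists were read in the same way, without a test, beside the shares of all genes at 10 CPM or more that were highest in each heart. Those shares were 36.9% for sham 1, 23.5% for sham 2 and 39.6% for sham 3, against 29.0%, 41.3% and 29.8% with TMM and 28.9%, 42.8% and 28.3% with DESeq2 size factors. The 2 other small heat shock genes in the table were Hspb2 and Hspb3, and Hspb2, the one at 10 CPM or more, was highest in sham 3, or in sham 2 with TMM or DESeq2 size factors. Of 4 other BAG genes at 10 CPM or more, 2 peaked in sham 1 and 2 in sham 3, also with TMM and DESeq2 size factors, too few to set against those shares. Of 8 other Hsp70 and Hsp110 genes, 2 peaked in sham 1, 2 in sham 2 and 4 in sham 3. With TMM or DESeq2 size factors the numbers were 2, 3 and 3, again too few to set against those shares. Of 10 other J-domain genes, 7 peaked in sham 1, 2 in sham 2 and 1 in sham 3, against 4, 5 and 1 with TMM and 3, 7 and 0 with DESeq2 size factors. The shift to sham 2 under these factors was also that of all genes. Of 12 genes of Hsp90 and its cochaperones, 5 peaked in sham 1, 2 in sham 2 and 5 in sham 3. On CPM this was close to all genes. With TMM or DESeq2 size factors the numbers were 5, 3 and 4, though the shares of all genes moved towards sham 2. Hsp90ab1, the constitutive Hsp90, had 1962, 1760 and 1868 CPM, and the stress-responsive Hsp90aa1 had 194.5, 116 and 157 CPM. On CPM, both were highest in sham 1 and lowest in sham 2, as were Hspb1, Hspb8 and Dnajb1. The lowest heart of the Hsp90 genes was not read with TMM or DESeq2 size factors. Of 11 endoplasmic reticulum chaperones at 10 CPM, 10 were highest in sham 3 (39.6% of all genes were), also with TMM and DESeq2 size factors, with 536, 605 and 703 CPM for Hspa5. Of 8 mitochondrial chaperones, 5 were highest in sham 2 (23.5% of all genes were), and 8 with TMM (41.3% of all genes) or DESeq2 size factors (42.8%).

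Of 12 genes for chaperone-assisted autophagy and its Z-disc clients, all averaged at least 10 CPM. Of these, 4 were highest in sham 1 (36.9% of all genes), 6 in sham 2 (23.5%) and 2 in sham 3 (39.6%). With TMM or DESeq2 size factors, 2 were highest in sham 1 (29.0% and 28.9% of all genes), 9 in sham 2 (41.3% and 42.8%) and 1 in sham 3 (29.8% and 28.3%). Actn2, the sarcomeric alpha-actinin, had the highest mean CPM of the list, not corrected for length, at 3026, 2983 and 2591, though Des, which encodes desmin, stood above it in sham 3 at 2617 CPM. Ankrd1, a stretch-responsive protein of the sarcomere, was the single gene of that list with a CV of 30% or more, at 1737, 754 and 1494 CPM. Among the heat shock factors, Hsf1, the master regulator of the heat shock response, had 39.7, 40.3 and 43.2 CPM. Its mean was 41.1 ± 1.86 CPM (SD, n = 3), from 416, 422 and 547 counts. Counting error was not computed for Hsf1, so its hearts are not ranked. Hsbp1, which encodes a binding protein of HSF1, was the highest of the list in each heart, at 126, 120.4 and 119 CPM. Hsf5 was at 0 counts in each heart.

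Of 16 immediate early genes at 10 CPM, 13 were highest in sham 1 (36.9% of all genes) and 14 had a CV of 30% or more (5.86% of all genes), also with TMM. Dusp1, a phosphatase of stress kinases, had 215, 68.4 and 62.0 CPM. Its mean was the highest of the list through sham 1, while Jund, a subunit of the factor AP-1, stood above it in sham 2 and sham 3 at 85.2 and 89.9 CPM. Nr4a1, a nuclear receptor with the widest spread in the list, had 138, 25.6 and 8.76 CPM.

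The genes whose pattern over the 3 hearts was nearest to that of the summed inducible pair were listed by the distance between log2 (CPM + 1) deviations, among 8856 other genes averaging at least 10 CPM. They were Slc2a1, the glucose transporter of most tissues, with 24.3, 21.6 and 13.8 CPM, then 4430402I18Rik, Rnf157, Ripor2 and Cnksr3, at distances from 0.0116 to 0.0797, and 3 genes lay within 0.05. For Cryab the nearest were Clic5, Mapk3, Lats2, Nt5dc3 and Pcbp2, at 0.00246 to 0.00473, but 451 genes lay within 0.05. With 3 hearts, and on CPM alone, such likeness is a description.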

How the data were processed

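Heart RNA was sequenced in 6 libraries, and per the labels all carry 1 batch name. The values deposited by the authors are raw whole-number counts per gene symbol, in a table with 1 column per sample, matched by name to the labels. The submitters' processing notes name HTSeq, HISAT2, Trimmomatic, DESeq and build mm9. No source used here gives settings, strandedness or the treatment of reads that match several places, so genes that overlap on opposite strands, such as Cryab with Hspb2 and Hspb6 with Lin37 and Proser3, are uncertain to that extent.

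CPM was computed from the counts and column totals with Python 3.11.15, pandas 2.3.3 and scipy 1.17.1. Scaling factors among the sham hearts came from edgeR 4.0.16 (TMM) and DESeq2 1.42.0 in R 4.3.3 as alternatives. Lengths and shared windows came from GENCODE M21 transcripts, promoters from RefSeq on GRCm38.p6. The code for CPM and for the spread between hearts was tested on simulated counts that varied by counting error alone. The other steps were not tested in this way. With 1 usable group, no test was made. Intervals cover counting error alone.

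The 10 genes and all lists were chosen with earlier results of these data known. Shared windows, levels per unshared window and the double unit were added after values had been seen. From each chaperone or pathway list, the plan was to name at most 4 genes. These were the gene with the highest mean CPM and those with a CV of 30% or more. Hspa4, the highest of the other Hsp70 and Hsp110 genes at a mean of 218 CPM, was left out above. Marker lists were given mainly as sums. The family neighbours and further examples were chosen after their values were seen.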

Additional observations from a re-analysis of the deposited data

How the results depend on the processing

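No paired analysis was possible because the sample labels name no pairs of animals. The CKD gene labels could not be relied on, so no test between groups was made. Mean levels of the 10 genes and of the summed pair moved by less than 1 SD with TMM or DESeq2 size factors. Both sets of factors keep the geometric mean of the column totals, so a mean over the hearts could hardly move. Dropping single hearts also kept the mean levels within 1 SD, which the arithmetic of 3 values ensures. Leaving the 100 highest genes out of the totals raised all 11 levels by more than 1 SD, since each was divided by a smaller total. The small heat shock counts, kept whole, came to 1.23% of those totals. Hspb7, Cryab and Hspb6 rank 19, 31 and 79 and were themselves left out of the totals, so this value is not a share of them. The inducible share of Hsp70 counts was 0.127% with Hspa1a alone, 0.131% with Hspa1b alone, 0.214% per kilobase of transcript and 0.166% per unshared window, and 0.230% to 0.295% when 1 heart was left out. Chaperones with a CV of 30% or more numbered 2 with a floor of 1 CPM and 2 with no filter on low counts. The median correlation between CKD and sham columns was 0.00533 over rows with at least 10 counts in every column. Depth limits the inducible pair most, at 16 to 29 counts per gene and heart.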
